A study of Mus musculus with 20 samples.

Results

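The constant-region genes of the antibody heavy chains, the constant gene of the kappa light chain and the gene of the joining (J) chain were followed across 5 groups of cells sorted from mouse spleen. The 9 genes Ighm, Ighd, Ighg1, Ighg2b, Ighg2c, Ighg3, Igha, Igkc and Jchain were taken by symbol from the 28338 genes of the deposited table of read counts, and all 9 passed the filter on low counts. RNA was sequenced from B cells and from type 1 conventional dendritic cells (cDC1) of wild-type (WT) and March1-/- mice, and from CD11cint cells of March1-/- mice, a population gated on intermediate CD11c, CD24 and intermediate CD8. All mice were of strain C57BL/6 and were used on postnatal day 21. MARCH1 is a membrane ubiquitin ligase through which antigen-presenting cells take in and degrade surface MHC class II and CD86, and the title of the series concerns marginal zone B cells that take membrane from dendritic cells. Each group held 4 libraries, numbered 1 to 4 as in their titles, with 22491084 to 32751804 counts per library. Whether the libraries of a group stem from different mice is not stated in the labels, and p-values thus speak of the spread among libraries alone, which may be technical.

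A B cell joins 1 rearranged variable region to the mu and delta constant regions by alternative processing of a long transcript, which gives IgM and IgD on the surface of naive cells. Class switch recombination then replaces mu and delta with a gamma, epsilon or alpha constant region. The kappa and lambda constant genes supply the light chains, and the J chain links secreted IgM and IgA into polymers. Constant-region RNA is abundant in antibody-secreting cells, so that a small number of them can contribute much of the switched RNA of a B cell sample. Among splenic B cells, follicular cells are known for high IgD and marginal zone cells for high IgM with low IgD.

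The B cell and cDC1 markers followed the labels of the sorted cells, with CD11cint cells on the B cell side. The summed level of 10 B cell markers was 9537 to 9883 CPM (here counts scaled to the library total) in WT B cells, 9763 to 10312 in March1-/- B cells and 10303 to 10485 in CD11cint cells. It was 169 to 185 CPM in WT cDC1 and 211 to 266 CPM in March1-/- cDC1. The summed level of 10 cDC1 markers was 6478 to 7534 CPM over the cDC1 libraries and 380 to 453 CPM over the others. March1 itself was counted at 147 ± 8.85 CPM in WT B cells, 150 ± 15.2 in March1-/- B cells, 127 ± 7.07 in CD11cint cells, 341 ± 27.3 in WT cDC1 and 263 ± 8.26 in March1-/- cDC1 (mean ± SD, n = 4), so gene-level counts do not check the genotype and March1-/- is used here as the label gives it. Library 1 of CD11cint cells and library 1 of March1-/- cDC1 stood apart from the other libraries of their groups, with a chi-square per gene of 41.7 to 64.8 and of 50.6 to 65.0 against 6.57 to 11.3 and 11.3 to 19.4 among the others. The sum of 6 erythroid markers was 1026 to 5319 CPM over all libraries. Library 1 was the highest of each March1-/- group, at 5319 (B cells), 4663 (CD11cint) and 2192 CPM (cDC1). For 6 neutrophil markers library 1 was also the highest of these groups, at 71.6, 63.4 and 20.4 CPM. The part of such cells in the results was not tested. Values without the March1-/- libraries numbered 1 are given where they changed a call.

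The heavy chain genes lie in a row on the minus strand of chromosome 12 (GRCm38), in the order Ighm (chr12:113418558-113422730), Ighd (chr12:113406604-113416324), Ighg3 (chr12:113356224-113361232), Ighg1 (chr12:113325240-113330523), Ighg2b (chr12:113302965-113307933), Ighg2c (chr12:113285325-113288932) and Igha (chr12:113254830-113260236). Igkc lies on the plus strand of chromosome 6 (chr6:70726435-70726966) and Jchain on the minus strand of chromosome 5 (chr5:88519809-88527891). None of the 9 shares an exon base with another annotated gene. The 4 gamma genes are close copies, and how far reads can tell them apart bears on every IgG value. The first 60 bases of their constant region, from the GENCODE M21 transcripts in the sense direction, are shown in gene order, with capitals at bases that differ from all of the other gamma genes.
Ighg3: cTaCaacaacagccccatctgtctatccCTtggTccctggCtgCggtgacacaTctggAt
Ighg1: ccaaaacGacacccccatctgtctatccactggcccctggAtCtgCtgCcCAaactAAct
Ighg2b: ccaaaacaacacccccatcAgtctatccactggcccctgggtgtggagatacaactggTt
Ighg2c: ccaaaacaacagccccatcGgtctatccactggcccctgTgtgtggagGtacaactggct
Ighg2b and Ighg2c differed at 5 of these 60 bases, and the other pairs at 13 to 18. Over the aligned secreted-form transcripts Ighg2b and Ighg2c were 86.3% identical and the other pairs 72.6% to 74.8%. Of the 50-base windows of the exons, 5.49% in Ighg2c, 4.15% in Ighg2b, 1.58% in Ighg3 and 0.39% in Ighg1 occur in another gene, and no 100-base window of any of the 9 genes does. Read length was not stated in the sources used here, and a small exchange of reads between Ighg2b and Ighg2c in particular cannot be set aside.

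Kappa and mu RNA made up most of the antibody RNA in every group. Per kilobase of exon, the mean level in WT B cells was 6343 CPM per kb for Igkc, 4129.8 for Ighm and 478 for Ighd. The next genes were Jchain at 113, Igha at 109, Ighg2c at 88.1, Ighg2b at 61.7, Ighg3 at 47.8 and Ighg1 at 8.89 CPM per kb. Together the 9 genes took 1.19% to 1.503% of all counts in WT B cells, 1.25% to 1.38% in March1-/- B cells, 0.929% to 1.11% in CD11cint cells and 0.049% to 0.062% in cDC1 of either genotype.

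**Figure D1:**
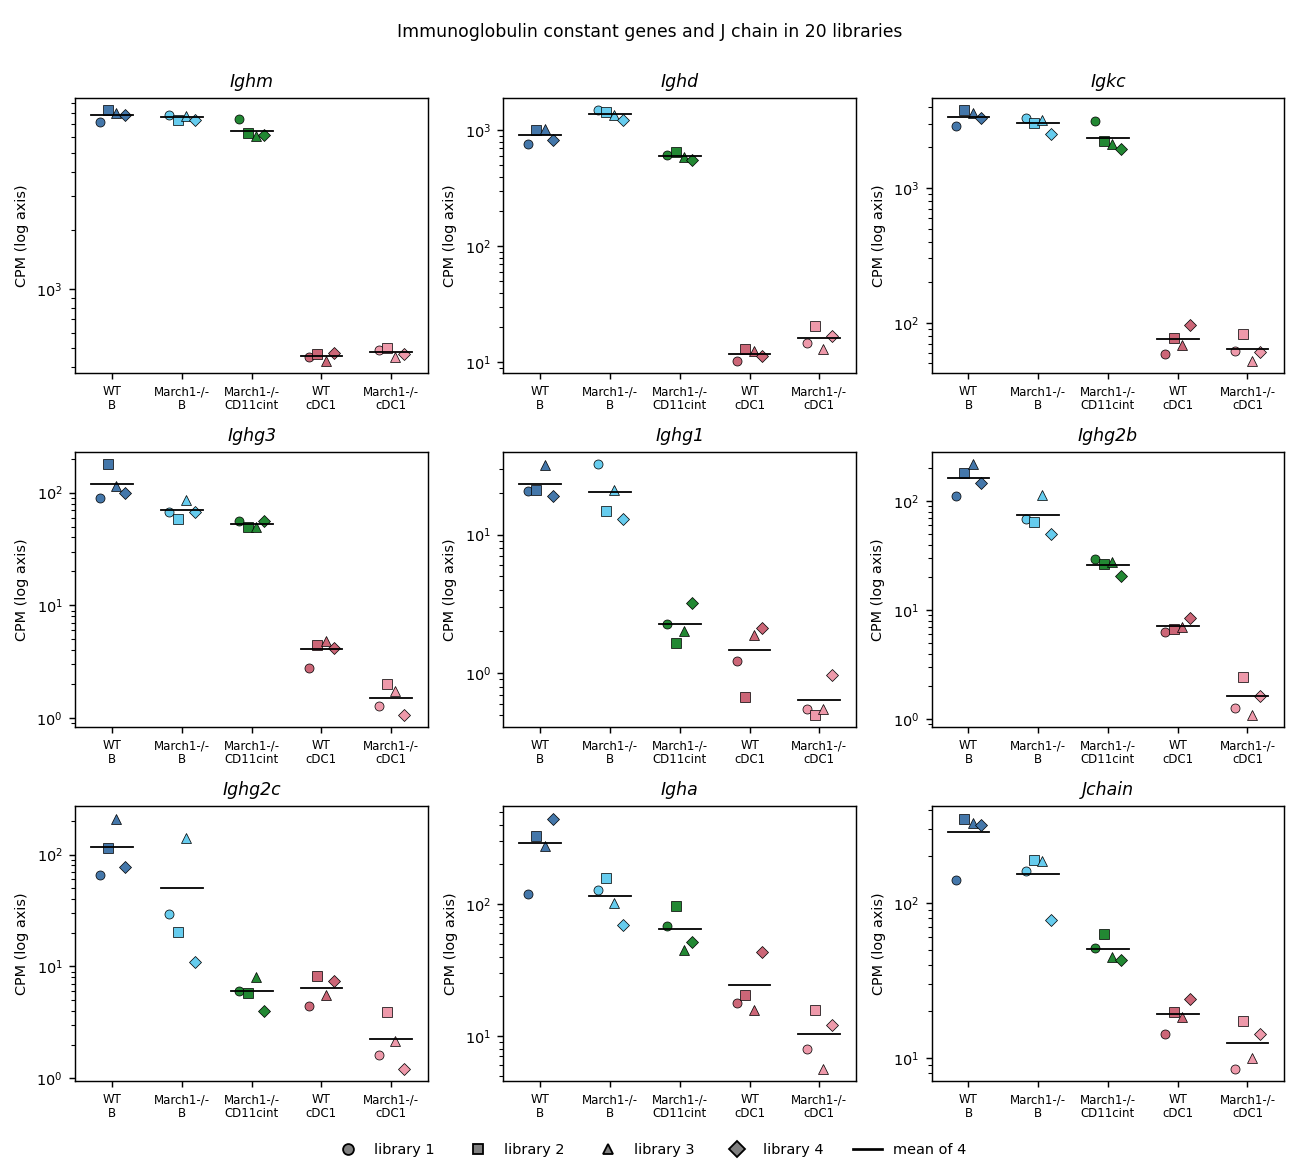
Level of each gene in the 20 libraries, in CPM on TMM-scaled library sizes on a log axis, with symbols for library 1 to 4 and a line at the mean of each group. Ighm differs little among the 3 B-lineage groups (6099.6 to 8228.5 CPM), whereas Ighg1 lies at 12.9 to 32.1 CPM in B cells and at 1.66 to 3.18 CPM in CD11cint cells, and Ighg2c in March1-/- B cells ranges from 10.96 to 141 CPM.

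CD11cint cells carried less IgD, IgG1, IgG2b, IgG2c and J chain RNA than March1-/- B cells, while their IgM RNA was lower by a small amount. Of the 9 genes, 6 fell and 0 rose in CD11cint cells against March1-/- B cells (edgeR's quasi-likelihood test, adjusted p under 0.05), where 12.2% of all 18710 genes tested fell and 24.7% passed in either direction. The median log2 fold change of the 9 was −1.21, against 0.01 for all genes tested. In these bulk libraries, fewer cells of a type and less RNA per cell cannot be told apart. Levels below are in CPM on TMM-scaled library sizes, for libraries 1 to 4 in order.

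Ighd, which encodes the IgD heavy chain, was at 1487, 1451, 1368.5 and 1239.6 CPM in March1-/- B cells and at 614, 646, 587 and 557 CPM in CD11cint cells. Every CD11cint library lay below every B cell library, and the log2 fold change was −1.21 ± 0.12 (SE, edgeR adjusted p = 6.02e-08). Ighm, the gene of the IgM heavy chain, was at 7840.0, 7385, 7738 and 7348 CPM in March1-/- B cells and at 7452, 6279, 6099.6 and 6128 CPM in CD11cint cells. In TMM-scaled CPM the groups overlapped in CD11cint library 1, which was the highest of its group for Ighm and for Igkc. Its TMM factor was 0.978, against 1.0359 to 1.0731 in the other CD11cint libraries and 1.0536 to 1.0977 in March1-/- B cells. A lower factor raises the scaled level. The Ighm difference of −0.22 ± 0.07 (edgeR adjusted p = 0.0304) passed the test, but it did not pass without March1-/- B cell library 1 (adjusted p = 0.0759) or 3 (0.0769), nor without CD11cint library 2 (0.0689), 3 (0.0915) or 4 (0.0749). Ighm also missed the threshold with no count filter (edgeR adjusted p = 0.119) or when only the compared groups were fitted (0.146). In all, it did not pass in 7 of the 18 alternatives.

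The IgG subclasses differed in how far they were lower in CD11cint cells. Ighg1 was at 32.1, 14.7, 21.0 and 12.9 CPM in March1-/- B cells and at 2.26, 1.66, 2.02 and 3.18 CPM in CD11cint cells, with no overlap and a log2 fold change of −3.14 ± 0.31 (edgeR adjusted p = 3.61e-07). Ighg2b was at 68.7, 64.4, 114 and 49.9 CPM in March1-/- B cells and at 29.6, 26.5, 27.6 and 20.8 CPM in CD11cint cells, again with no overlap and with a log2 fold change of −1.51 ± 0.24 (edgeR adjusted p = 0.000124). For Ighg2c the March1-/- B cells spread widely, at 29.4, 20.2, 141 and 10.96 CPM, while CD11cint cells were at 6.07, 5.83, 7.99 and 4.03 CPM. All CD11cint libraries lay below all B cell libraries, and the log2 fold change of −3.08 ± 0.70 (edgeR adjusted p = 0.00401) became −1.77 without March1-/- B cell library 3, still past the test (adjusted p = 0.0114).

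Ighg3, the gamma gene next to Ighd, was nearer between the groups. It was at 67.3, 58.3, 85.7 and 67.4 CPM in March1-/- B cells and at 56.4, 49.1, 49.2 and 56.6 CPM in CD11cint cells, which did not overlap. The log2 fold change of −0.40 ± 0.18 missed the threshold without a block (edgeR adjusted p = 0.116). It passed with the replicate number as a block within genotype (−0.39, edgeR adjusted p = 0.0188) and with the compared groups alone (0.0277). The numbers paired these 2 groups, since the deviations of same-numbered libraries from their group means correlated at 0.213 to 0.503.

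Igha, Igkc and Jchain were lower in CD11cint cells in all 4 numbered pairs, as were the other 6 genes. The share of all genes tested that were lower in all 4 pairs was not counted. Igha, the gene of the IgA heavy chain, was at 128, 158, 101 and 69.6 CPM in March1-/- B cells and at 68.6, 96.1, 44.4 and 51.3 CPM in CD11cint cells. Library 2 was the highest and the ranges overlapped, and the difference of −0.81 on the log2 scale did not pass (edgeR adjusted p = 0.194), but it did with the replicate block (−0.83, edgeR adjusted p = 0.0287). Igkc, the kappa constant gene, was at 3311, 3035.5, 3167 and 2503 CPM in March1-/- B cells and at 3119, 2209, 2112 and 1938 CPM in CD11cint cells. CD11cint library 1 lay within the B cell range and the other 3 below it. The log2 difference of −0.36 (edgeR adjusted p = 0.114) passed with the replicate block (−0.37, adjusted p = 0.0342), without CD11cint library 1 (−0.53, adjusted p = 0.0201) and on plain library sizes (adjusted p = 0.049).

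Jchain, the gene of the chain that polymerises IgM and IgA, was at 160.1, 189, 188 and 77.9 CPM in March1-/- B cells and at 51.6, 63.5, 44.7 and 42.7 CPM in CD11cint cells. The groups did not overlap, although B cell library 4 came close to CD11cint library 2, and the log2 fold change was −1.60 ± 0.31 (edgeR adjusted p = 0.00114). Jchain was the only gene of the 9 with an entry among the RefSeq promoters used here (GRCm38.p6). The 250 bases upstream of its start, chr5:88527898-88528147 on the minus strand, are shown because E proteins such as the Tcf3 product, which bind E-boxes, are among the regulators described below. Capitals mark E-boxes (CANNTG, which reads alike on both strands).
Jchain promoter: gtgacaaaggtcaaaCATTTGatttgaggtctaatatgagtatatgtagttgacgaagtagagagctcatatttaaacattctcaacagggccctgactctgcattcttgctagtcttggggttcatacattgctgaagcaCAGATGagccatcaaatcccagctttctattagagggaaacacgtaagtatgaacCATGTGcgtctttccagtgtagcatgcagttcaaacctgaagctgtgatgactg
It held 3 E-boxes, and 66.2% of the 32851 promoters of this length held at least 1. The octamer ATGCAAAT, searched on both strands, was found in 1.6% of promoters and not in this window.

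**Figure D2:**
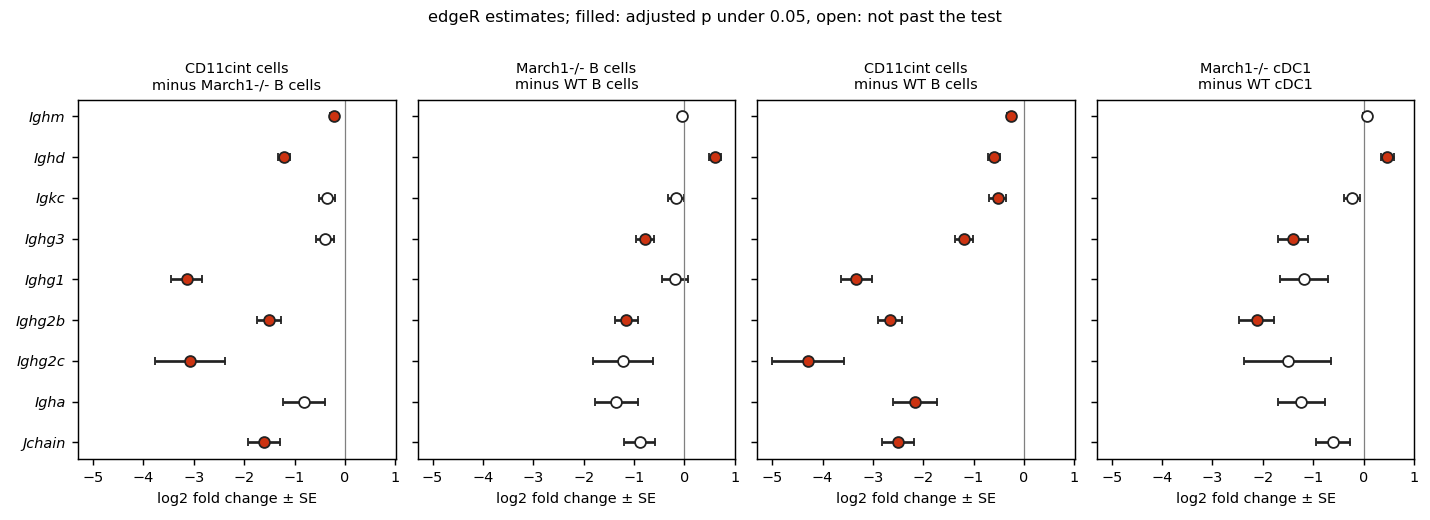
Log2 fold change ± SE of each gene in 4 comparisons, from edgeR's fit of all 5 groups, with filled circles for an adjusted p under 0.05 and open circles for the rest. In CD11cint cells against March1-/- B cells the values run from −3.14 for Ighg1 to −0.22 for Ighm, and in March1-/- against WT B cells Ighd is the gene on the positive side (0.61).

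Ratios within a library do not depend on library scaling, and they separated the groups more sharply for IgD than for the switched isotypes. There were 18.3 ± 1.25 Ighd counts per 100 Ighm counts in March1-/- B cells, 11.6 ± 1.15 in WT B cells and 9.31 ± 0.864 in CD11cint cells (mean ± SD, n = 4). The CD11cint libraries, at 8.24 to 10.3, lay below all WT B cell libraries, at 10.6 to 12.9, and these below all March1-/- B cell libraries, at 16.9 to 19.7. The switched isotypes (4 gamma genes and Igha) made up 4.88% to 8.56% of heavy chain constant counts in WT B cells, 2.40% to 4.84% in March1-/- B cells and 1.92% to 2.52% in CD11cint cells. March1-/- B cell library 4 (2.40%) fell within the CD11cint range. Among IgG counts alone, Ighg3 made up 60.6% ± 4.40 in CD11cint cells, against 28.9% ± 6.65 in WT and 35.6% ± 9.89 in March1-/- B cells, with no CD11cint library below 56.7% and no B cell library above 47.7%.

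J chain RNA per IgM RNA was also lowest in CD11cint cells. It was 0.783 ± 0.154 Jchain counts per 100 Ighm counts there, against 3.62 ± 1.10 in WT and 2.02 ± 0.679 in March1-/- B cells. The highest CD11cint library was at 1.01 and the lowest March1-/- B cell library at 1.06, so that these neighbours in the order differed by little. Per 100 switched heavy chain counts, a ratio not among those planned, Jchain was at 31.4 to 35.5 in CD11cint cells, 34.8 to 42.4 in WT and 37.0 to 59.9 in March1-/- B cells. From counts per kilobase of exon these ranges were 31.5 to 35.8, 31.4 to 38.95 and 32.6 to 58.96, so that all 3 groups overlapped. The ratio of Igkc to the lambda genes Iglc1, Iglc2 and Iglc3, a ratio added after the data were seen, was 2.18 ± 0.312 in CD11cint cells and 2.22 ± 0.364 in March1-/- B cells, with library 4 the lowest of both groups (1.72 and 1.68). It was 3.09 ± 0.313 in WT B cells, all of whose libraries lay above those of the other B-lineage groups.

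**Figure D3:**
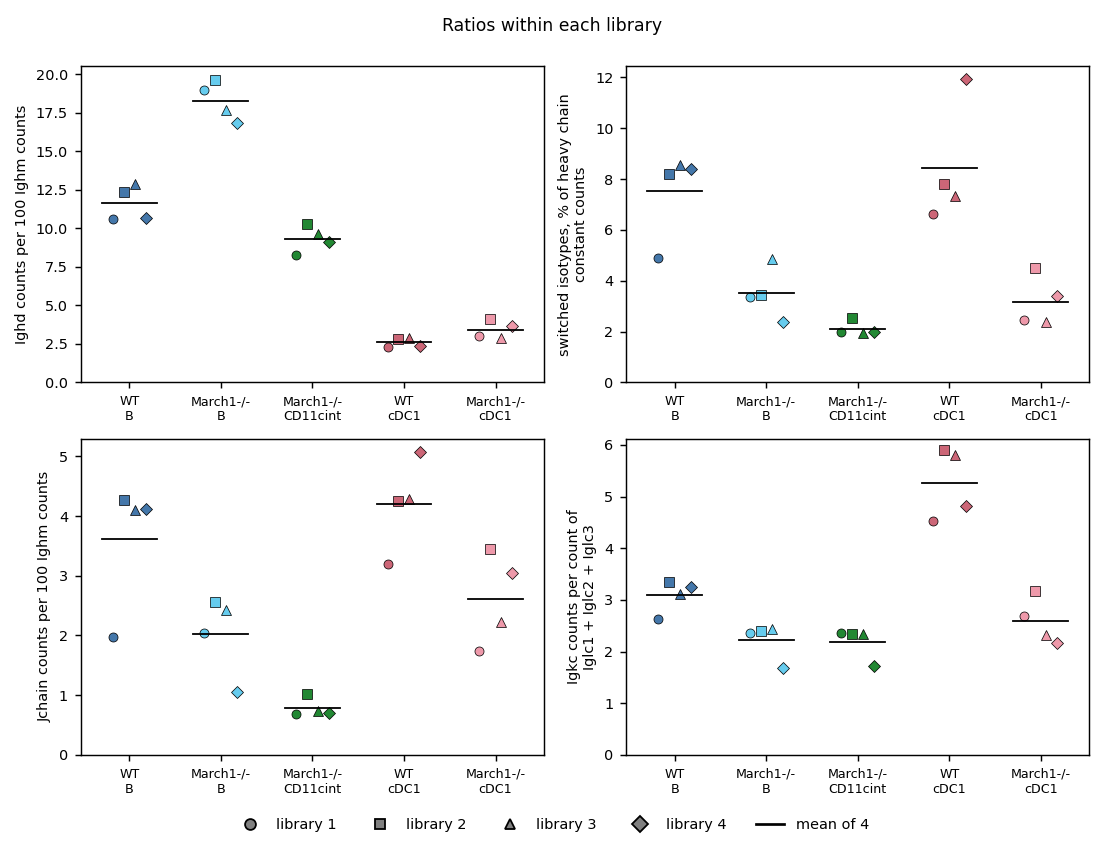
Ratios of counts within each of the 20 libraries, on linear axes from 0, with symbols for library 1 to 4 and a line at the group mean. Ighd per 100 Ighm is highest in March1-/- B cells (16.9 to 19.7), and the switched share of WT B cells holds 3 libraries between 8.21% and 8.56% and library 1 at 4.88%.

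Other genes of antibody production differed between CD11cint cells and March1-/- B cells as well. Of 12 plasma cell and secretion genes, 6 fell and 1 rose (edgeR), with a median log2 fold change of −0.51 against 0.01 for all genes tested. Of all genes tested, 12.2% fell and 24.7% passed in either direction. Sdc1, which encodes the plasma cell surface proteoglycan syndecan-1, was at 1.498 against 14.6 CPM (−3.27 ± 0.22, edgeR adjusted p = 6.18e-10). Fkbp11 (−1.77) and Txndc5 (−1.05), which encode folding enzymes of the secretory pathway, fell, as did Slamf7 (−0.63), Derl3 (−0.61) and Prdm1 (−0.41), the last the gene of the plasma cell regulator Blimp-1. Mzb1, which encodes an IgM chaperone named after marginal zone B cells, rose by 0.49 ± 0.09 (edgeR adjusted p = 0.000431).

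Zfp318, which encodes a protein required in mice for IgD expression from the mu-delta transcript, had a mean of 89.6 CPM in CD11cint cells against 211 CPM in the B cells of the same genotype (−1.23 ± 0.12, edgeR adjusted p = 1.06e-07). It was 1 of 3 genes that fell among 12 for heavy chain transcription and isoform choice, beside Hnrnpll (−0.45) and Tcf3 (−0.21), and 0 rose. Of all genes tested 12.2% fell and 24.7% passed in either direction, so the number of calls in this list was near the latter share. The median log2 fold change of the list was −0.18. From the list of class switch recombination genes, which is reported in part and for which no count is given, Lig4 (−0.63), Msh6 (−0.26) and Trp53bp1 (−0.17) fell. Of the other constant genes, Iglc2 (−0.44), Iglc4 (−0.75) and Ighe (−3.25) fell, and Ighe held 6 counts in all over the CD11cint libraries. Vpreb3, a gene of the surrogate light chain family, fell (−1.21, edgeR adjusted p = 1.79e-08), while Vpreb1, Vpreb2 and Igll1 were below the count filter.

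Receptors for antibody moved in both directions, in a comparison where 12.2% of all genes tested fell and 24.7% passed in either direction. Fcmr, the IgM receptor (−1.14), Fcer2a, the low-affinity IgE receptor CD23 (−1.46), Fcgrt, the neonatal Fc receptor (−1.27), Pigr (−0.63) and Fcer1g (−0.77) fell among 12 such genes. Fcgr2b, the inhibitory IgG receptor (0.39), Fcrl5 (0.69) and Fcgr4 (0.61) rose. Markers of other cells moved with this comparison. Of 9 T cell markers 8 fell, and their sum was 37.6 to 45.4 CPM in CD11cint cells against 93.6 to 112 CPM in March1-/- B cells. Of 6 NK cell markers 5 fell and Prf1 rose. Of 10 cDC1 markers 7 rose and 0 fell (median 0.73 on the log2 scale), and their sum was 381 to 429 CPM in CD11cint cells against 380.3 to 416 CPM in March1-/- B cells. Of 8 macrophage and monocyte markers 3 fell, and of 6 plasmacytoid dendritic cell markers 2 fell. The summed level of 8 plasma cell markers was 713 to 757 CPM in CD11cint cells against 758 to 829 CPM in March1-/- B cells, with none at 0. The part of other cells in the differences of the 9 genes was not tested. Of the 10 B cell markers 3 rose and 0 fell.

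March1-/- B cells differed from WT B cells in having more IgD and less IgG2b and IgG3 RNA. Of the 9 genes, 1 rose and 2 fell (edgeR), where 2.31% of all genes tested rose and 2.44% fell. Ighd was at 761, 1017, 1030.3 and 827 CPM in WT B cells, all below the March1-/- B cells, and the log2 fold change was 0.61 ± 0.11 (edgeR adjusted p = 0.00194). Ighg2b was at 112, 183, 218 and 149 CPM in WT B cells, with WT library 1 just below March1-/- library 3, with a log2 fold change of −1.15 ± 0.23 (edgeR adjusted p = 0.00507). Ighg3 was at 89.8, 178, 114 and 98.9 CPM in WT B cells, each above all March1-/- B cell libraries, with a log2 fold change of −0.79 ± 0.18 (edgeR adjusted p = 0.0111). Fitted on these B cell groups alone, Ighd kept its call, but Ighg2b (edgeR adjusted p = 0.115) and Ighg3 (0.136) lost theirs. Ighg3 also lost it without the March1-/- libraries numbered 1 (adjusted p = 0.0679).

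Whether Ighg2c, Igha and Jchain passed in this comparison depended on a single library or on the method. Ighg2c was at 65.1, 115, 210 and 77.1 CPM in WT B cells, and the log2 difference of −1.21 ± 0.60 did not pass (edgeR adjusted p = 0.348). Without March1-/- B cell library 3, which held 141 CPM where the other 3 held 10.96 to 29.4, it was −2.52 (edgeR adjusted p = 0.00387), and by limma-voom over all libraries it passed as well (adjusted p = 0.0298). Igha was at 118, 330, 274 and 444 CPM in WT B cells, and library 1 lay within the March1-/- range. Its log2 difference of −1.35 ± 0.42 (edgeR adjusted p = 0.0923) passed without WT library 1 (−1.61, adjusted p = 0.0365), and also by DESeq2 (adjusted p = 0.038) and limma-voom (0.0343). Jchain was at 141, 351, 329 and 320 CPM in WT B cells, with library 1 again low. Its log2 difference of −0.89 ± 0.30 (edgeR adjusted p = 0.124) passed without that library (−1.11, adjusted p = 0.0276). Over the 17 alternatives, the log2 differences ran from −2.52 to −0.77 for Ighg2c, −1.61 to −1.08 for Igha and −1.11 to −0.67 for Jchain. Ighg2c did not pass in 15 of the 17, Igha in 14 and Jchain in 16. With libraries left out, the highest edgeR adjusted p was 0.658 for Ighg2c, 0.26 for Igha and 0.264 for Jchain.

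Ighm, Igkc and Ighg1 were not called between the B cells of the 2 genotypes. Ighm was at 7158, 8228.5, 8015 and 7754 CPM in WT B cells (−0.04, edgeR adjusted p = 0.875). Igkc was at 2875, 3750.1, 3582 and 3290.2 CPM (−0.17, edgeR adjusted p = 0.704), and Ighg1 at 20.7, 20.9, 31.7 and 18.9 CPM (−0.19, edgeR adjusted p = 0.814). The ranges of all these genes overlapped. None of the 12 plasma cell and secretion genes passed by edgeR, and their median log2 fold change was −0.04 (all genes −0.01). Zfp318 rose from 155 to 211 CPM (0.45 ± 0.12, edgeR adjusted p = 0.0292). Iglc2 (0.47), Iglc4 (0.72), Vpreb3 (0.85), Lig4 (0.41), Tcf3 (0.24), Fcmr (0.47) and Fcer2a (0.47) rose, and Fcgr2b (−0.35) fell. Of 10 cDC1 markers, Tlr3 (−0.74) and Flt3 (−0.95) fell and 0 rose. Of the 10 B cell, 9 T cell and 8 plasma cell markers, 0 passed.

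Set against WT B cells, CD11cint cells had lower levels of all 9 genes, in a comparison that shares its libraries with both of the preceding ones. CD11cint cells came from March1-/- mice alone, so population and genotype cannot be told apart here. All 9 fell (edgeR), where 8.04% of all genes tested did and 14.0% passed in either direction. Ighg2c (−4.30), Ighg1 (−3.33), Ighg2b (−2.66), Jchain (−2.49) and Igha (−2.16) had no overlap between the groups. Ighg3 (−1.19) and Ighd (−0.60, edgeR adjusted p = 0.000844) had none either, and the share of all genes without overlap was not counted. Igkc (−0.53, edgeR adjusted p = 0.0307) and Ighm (−0.26, edgeR adjusted p = 0.0193) overlapped in TMM-scaled CPM through CD11cint library 1. Igkc lost its call without CD11cint library 2, 3 or 4 or WT library 2, 3 or 4 (edgeR adjusted p 0.0528 to 0.0998), and Ighm without CD11cint library 2 or 3 or WT library 2 or 3 (0.0517 to 0.0788). With no count filter neither passed (edgeR adjusted p 0.068 for Igkc and 0.0923 for Ighm), and Ighm did not with the compared groups alone (0.143). On plain library sizes Ighm passed (−0.31, edgeR adjusted p = 0.00124). In order of level, Ighd ran from March1-/- B cells over WT B cells to CD11cint cells with gaps between all groups. Ighg3 ran from WT over March1-/- B cells to CD11cint cells with gaps as well, and Jchain in the same order with an overlap between the B cell groups.

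The cDC1 libraries held all 9 RNAs at low levels. All 9 fell in WT cDC1 against WT B cells (edgeR), where 36.2% of all genes tested did, with log2 fold changes from −6.27 for Ighd to −3.58 for Igha. As a share of the WT B cell mean, the cDC1 level was 1.30% ± 0.136 for Ighd, 2.23% for Igkc, 5.84% ± 0.246 for Ighm, 6.72% for Jchain and 8.38% for Igha (mean ± SD, n = 4 where given). The median of the 9 genes was 5.46%, and that of the 10 B cell markers was 1.04%, with a range of 0.623% for Cd79a, which signals for membrane antibody, to 21.6% for Fcrla. In March1-/- cDC1, against B cells of that genotype, the medians were nearer, at 3.18% for the 9 genes and 2.04% for the markers. The median of the 5 other constant genes was 1.60% in WT and 1.86% in March1-/- cDC1. Ighm and Ighd stood in another ratio than in B cells, with 2.60 ± 0.305 Ighd counts per 100 Ighm counts in WT cDC1 and 3.42 ± 0.552 in March1-/- cDC1. The sorted cells were 95 to 99% pure per the labels, and the part of B cells or free RNA in these levels was not tested. CD11cint cells were higher than March1-/- cDC1 in 8 of the 9 genes (edgeR), where 36.6% of all genes tested were. Ighg2c was the exception, at 5.98 ± 1.62 against 2.22 ± 1.18 CPM (1.40 ± 0.86, edgeR adjusted p = 0.154), although these groups did not overlap. It passed by DESeq2 (adjusted p = 0.035) and with the compared groups alone (edgeR adjusted p = 0.00157). On plain library sizes the median of all genes moved from −0.04 to −0.26 for WT cDC1 against WT B cells and from 0.03 to 0.18 for CD11cint cells against March1-/- cDC1, and no direction of the 9 genes changed.

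**Figure D4:**
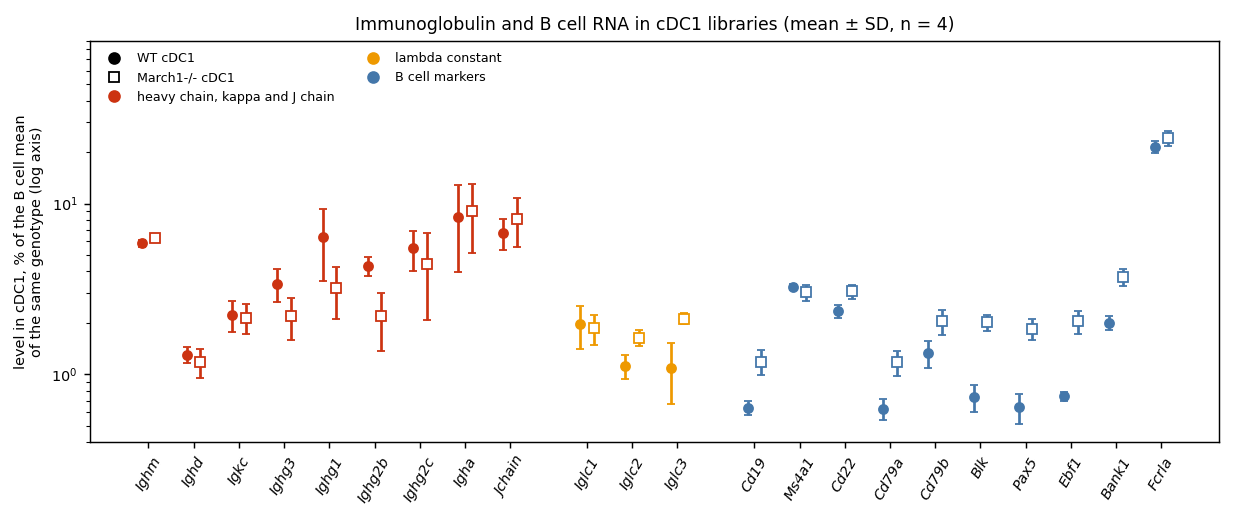
Level in cDC1 libraries as a percent of the mean of the B cells of the same genotype, on a log axis, for the 9 genes, 3 lambda constant genes and 10 B cell markers (mean ± SD, n = 4). Of the 9 genes Ighd lies lowest (1.30% in WT and 1.18% in March1-/- cDC1), and 7 of the 10 B cell markers pass the test as higher in March1-/- than in WT cDC1.

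Between the cDC1 of the 2 genotypes, IgG2b and IgG3 RNA were lower in March1-/- cells and IgD RNA was higher. Of the 9 genes 1 rose and 2 fell (edgeR), where 1.53% of all genes tested rose and 1.34% fell. Ighg2b was at 6.33, 6.76, 7.005 and 8.47 CPM in WT and at 1.28, 2.46, 1.10 and 1.64 CPM in March1-/- cDC1, with no overlap (−2.12 ± 0.35, edgeR adjusted p = 0.00126). Ighg3 was at 2.80, 4.42, 4.88 and 4.19 CPM in WT and at 1.28, 1.998, 1.76 and 1.07 CPM in March1-/- cDC1, also without overlap (−1.40 ± 0.29, edgeR adjusted p = 0.00878). The Ighg3 call was lost without the March1-/- libraries numbered 1 (edgeR adjusted p = 0.136) and by limma-voom (adjusted p = 0.0672). These levels rest on 30 to 74 Ighg2b and 30 to 60 Ighg3 counts per March1-/- library.

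Ighd was at 10.3, 13.1, 12.5 and 11.3 CPM in WT and at 14.7, 20.5, 13.1 and 17.0 CPM in March1-/- cDC1. The ranges touched, since March1-/- library 3 lay just below WT library 2. The log2 fold change of 0.47 ± 0.13 (edgeR adjusted p = 0.0444) missed the threshold on leaving out any library but March1-/- library 3, with adjusted p from 0.0504 (without March1-/- library 1) to 0.242 (without March1-/- library 2). It also missed it without the March1-/- libraries numbered 1 (edgeR adjusted p = 0.0678), with the compared groups alone (0.0649) and by limma-voom (0.0818). The other genes did not pass. Their log2 differences were 0.06 for Ighm, −0.22 for Igkc, −0.61 for Jchain, −1.18 for Ighg1, −1.24 for Igha and −1.51 for Ighg2c. Of 10 B cell markers 7 rose, 0 fell and 3 did not pass (median 0.89 on the log2 scale). None of the 10 was at 0 counts in a library. Cd79a rose from 7.78 to 17.0 CPM (1.13 ± 0.12, edgeR adjusted p = 2.66e-06). The lambda genes Iglc2 (1.02) and Iglc3 (1.09) rose, as did Mzb1 (1.17), Irf4 (0.52), Cd79b (0.74) and Xrcc5 (0.69). Of 12 genes for heavy chain transcription and isoform choice 6 rose and 0 fell, namely Ebf1 (1.55), Pax5 (1.49), Pou2af1 (1.47), Ets1 (0.72), Spib (0.48) and Pou2f2 (0.28). Of 12 receptors for antibody Pigr (1.44), Fcrl5 (1.28) and Fcmr (0.81) rose and 0 fell. The part of B cell RNA in these differences was not tested.

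The effect of genotype was not shown to differ between B cells and cDC1 for any of the 9 genes. In the interaction of genotype and cell type 0 of 9 passed by edgeR, where 2.36% of all genes tested did, and 0 passed by DESeq2 or limma-voom. At an unadjusted p under 0.05 there was 1 gene, Ighg2b, whose genotype difference was lower in cDC1 (−0.97 ± 0.42, edgeR adjusted p = 0.344). Iglc3, which is not of the 9, passed (0.95 ± 0.22, edgeR adjusted p = 0.0185).

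Across the 12 B cell and CD11cint libraries, the 9 genes fell into patterns that are given as a description, since the libraries come from 3 groups that differ in many genes. Ighm and Igkc correlated at 0.965 (Pearson r of log2 CPM), Ighg2b and Ighg2c at 0.976, which share some sequence, Ighg2b and Jchain at 0.957, and Igha and Jchain at 0.931. Ighd correlated with the other 8 genes at 0.331 (Ighg3) to 0.787 (Ighg1). Outside the antibody loci, the genes most like Ighd were Tcp11l2 (0.996), Plcl2 (0.986) and Retreg1 (0.982). Ckap4 and Nt5e, the gene of CD73, were among the 3 most like each of Ighg2b, Ighg2c and Jchain, with 0.976 for Ckap4 and 0.959 for Nt5e beside Jchain. Ptprk (0.983), Fkbp11 (0.970) and Zbtb32 (0.970) were the most like Ighg1. For Igha these were Cd209a (0.916), Polr3e (0.915) and Tnfrsf17 (0.901), the last the gene of the plasma cell receptor BCMA. For Ighg3 they were Basp1 (0.919), Maged1 (0.915) and Chst1 (0.914), for Igkc Rgcc (0.906), Cisd3 (0.899) and Anxa2 (0.898), and for Ighm Gm48038 (0.914), Klra17 (0.912) and Fcer1g (0.91).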

How the data were processed

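Whole-number read counts per gene were deposited by the authors for each of 20 libraries and 2 lanes, and as a table of the series. Tools listed in the submitters' processing notes are limma, edgeR, Subread, STAR, FastQC and CASAVA, on GRCm38 (mm10). Strandedness was not stated in the sources used here. Per the labels, libraries were made from total RNA with TruSeq chemistry. Lanes were added, and the sum equalled the deposited table in all 566760 cells. The lanes of a library agreed within sampling noise (chi-square per gene 0.989 to 1.031). Every entry had a gene identifier, and 28290 identifiers matched GENCODE M21, leaving 48 with 0.0414% of counts. The detection floor of 3 counts equalled 0.0916 to 0.1334 CPM and covers counting error only.

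Counts were fitted in edgeR 4.0.16 (R 4.3.3) over all 5 groups with filterByExpr, TMM and robust quasi-likelihood F tests, with Benjamini-Hochberg adjustment over 18710 genes and 7 contrasts each tested at 0.05. The fit had 15 residual degrees of freedom. The procedure was also run on simulated counts, which held no pairing by number and no library that stood apart, so that these were not covered. DESeq2 1.42.0, limma-voom (limma 3.58.1), other scalings and filters, replicate blocks, the compared groups alone and leaving out libraries were alternatives. Library numbers paired March1-/- B cells with CD11cint cells (correlation of same-numbered deviations 0.213 to 0.503, each above 0.1). The correlations with March1-/- cDC1 were 0.088 to 0.202 for March1-/- B cells and 0.034 to 0.369 for CD11cint cells. They were 0.089 to 0.315 between WT B cells and WT cDC1. Within a genotype, all 4 libraries of the first group correlated best with their own number, and between genotypes 2 or 3 did. The main fit held no block. CPM used TMM-scaled sizes, except marker sums, which used library totals. Log2 values for correlations had a prior count of 2. Sequences came from GENCODE M21 transcripts and RefSeq promoters. Python 3.11.15 with pandas 2.3.3 was used.

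The members and gene lists were chosen with earlier results of these data known. All 9 genes are named, with genes of the pathway lists that passed in the main comparisons, except 1 that is not reported here, and, per gene, the 3 most correlated genes outside the immunoglobulin segments. Marker lists are given as counts and sums.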

Additional observations from a re-analysis of the deposited data

Results flagged for a closer look

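In 65 sets of 4 libraries, 11 had a library whose gap to its nearest neighbour took up more of the whole range than Dixon's 95% critical value allows, and chance gives such a gap in about 1 of 20 sets. In WT B cells, library 1 was low for Jchain (141 CPM), for Jchain per 100 Ighm counts (1.98) and for the switched percent of heavy chain counts (4.88%), 3 measures that share genes, and library 3 was high for Ighg1 (31.7 CPM). Library 3 of March1-/- B cells was high for Ighg2c (141 CPM). Among CD11cint cells, library 1 was high for Ighm (7452 CPM), and library 2 for Jchain per 100 Ighm counts (1.01) and for the switched percent (2.52%). Library 4 of March1-/- B cells and library 4 of CD11cint cells were low for Igkc per lambda count (1.68 and 1.72). In March1-/- cDC1, library 4 was high for Ighg1 (0.964 CPM), which rests on 27 counts.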

How the results depend on the processing

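Of the 9 genes, 3 passed between March1-/- and WT B cells, against 5 with limma-voom, 1 with the compared groups only and 3 to 5 on leaving out 1 library (5 without WT B cell library 1). Between the cDC1 of the 2 genotypes 3 passed, against 1 with limma-voom, 1 without the March1-/- libraries numbered 1, and 2 to 3 on leaving out 1 library. In CD11cint cells against March1-/- B cells 6 passed, against 9 with the replicate block within genotype and 5 to 7 on leaving out 1 library. No other comparison's number of calls among the 9 moved by over 1.5 times under any alternative run, and the replicate block changed no other call of the 9. The sign of a log2 difference that had not passed turned for 4 pairs of gene and comparison on leaving out 1 library. In all, 12 alternative values had the sign reversed, and the cause was not tested. Ighg1 in March1-/- against WT B cells ran from −0.51 to 0.0044, and in the interaction Ighg2c ran from −0.74 to 1.02, Igha from −0.16 to 0.55 and Igkc from −0.20 to 0.0865. The interaction of Ighg2c was 0.16 with limma-voom, and that of Igkc 0.0116 without the March1-/- libraries numbered 1. Over all genes, 4613 were called in CD11cint cells against March1-/- B cells and 3018 with the compared groups only. For March1-/- against WT B cells 890 were called, and 574 to 592 without March1-/- library 1 or 3 or WT library 1 or 4. In the interaction 441 were called, 697 by DESeq2, 680 with the replicate block over all libraries and 978 with it within genotype. Low counts limit Ighg1 in March1-/- cDC1, at 15 to 27 counts per library.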
